A study of Canis lupus familiaris with 30 samples.

Results

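The adrenomedullin peptides and the parts of their receptor were followed by gene symbol in RNA sequencing data from 30 canine thyroid carcinomas. The set was chosen by name and comprised *ADM*, *ADM2*, *CALCRL*, *RAMP1*, *RAMP2* and *RAMP3*. Of these 6 genes, 4 had a row in the count table of 30424 genes, namely *ADM* (ENSCAFG00000007539), *ADM2* (ENSCAFG00000000609), *CALCRL* (ENSCAFG00000014737) and *RAMP1* (ENSCAFG00000023774). *RAMP2* and *RAMP3* were not analysed here. The samples were primary tumors of the canine thyroid gland, given by the labels as tumor tissue. The labels name each tumor by its library but give no histologic type, so no tumor types were compared and each tumor is called by its library name.

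Adrenomedullin (*ADM*) and adrenomedullin 2, also called intermedin (*ADM2*), are secreted peptides of the calcitonin family that relax and maintain vessels. Both signal through the calcitonin receptor-like receptor (*CALCRL*), which reaches the cell surface only together with a receptor activity-modifying protein. The partner sets the preference of the receptor. *RAMP1* makes it a receptor for calcitonin gene-related peptide, and *RAMP2* or *RAMP3* make it a receptor for adrenomedullin. The receptor couples through the stimulatory G protein to adenylyl cyclases and cyclic AMP, and it is best known from blood and lymphatic endothelium. *ADM* is also a textbook target of the response to low oxygen.

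Between 12288945 and 45148677 counts per tumor fell on genes (median 25569678). Levels are given as normalized counts, which are counts divided by a median-of-ratios size factor per tumor. TC538 stood apart, with the lowest total and the smallest size factor, 0.279, against 1.62 in the highest tumor. The tissue label was checked with thyroglobulin (*TG*), which reached 1000 normalized counts in 27 of 30 tumors and was lowest in TC1088, with 12 counts. The follicular transcription factor *PAX8* reached this level in 26 tumors. Calcitonin (*CALCA*), the hormone of thyroid C cells, reached it in 8 tumors and was at 0 counts in TC1241. The endothelial genes *PECAM1* and *CDH5* were counted in all 30 tumors, with at least 425 and 51 counts. Clustering of the tumors without the 4 genes gave a larger branch of 25 tumors and a smaller one of 5 (TC1020, TC1473, TC1601, TC1936 and TC2289). Relations between genes are given over the 25 tumors of the larger branch. In bulk tissue, fewer cells of a type and less RNA per cell cannot be told apart.

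By interquartile range, the peptide genes were the least and the most variable of the 4 genes. *ADM* was low in every tumor, with 14 counts in the lowest, a median of 41.5 and 244 in the highest. As normalized counts, *ADM* ran from 12.8 in TC812 over a median of 38.8 to 247 in TC538. TC812, TC2402 and TC627 were the lowest tumors and TC1593, TC1601 and TC538 the highest, with 123, 209 and 247 normalized counts. The place of TC538 rested on its size factor, since *ADM* held 0.00056% of its counts (95% Wilson interval 0.00044 to 0.00071) and 0.00084% of those of TC1601 (0.00074 to 0.00095). These intervals cover counting error only. *ADM* lay within 2-fold of its median in 19 of 30 tumors, and counting error alone came to 15.5% of the value in the median tumor.

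*ADM2* was the most variable member. It had 3 counts in TC2289, which is at the floor of detection, 54 in TC1473 and 96 in TC1020, a median of 8240 and 186286 in TC2011. The 3 highest tumors were TC1994 with 45877 normalized counts, TC1744 with 78487 and TC2011 with 161758, so that *ADM2* alone took 0.593% of all counts in TC2011 (95% Wilson interval 0.591 to 0.596). Within the larger branch it ran from 331 normalized counts in TC1088 over a median of 7655 to 161758, a 489-fold range. This range was 141-fold without TC1088, since TC538 followed at 1144 normalized counts, and 237-fold without TC2011. Its interquartile range over the 30 tumors was 3.43 on the log2 scale, wider than that of 96.9% of the 18711 genes that passed the count filter, whose median was 1.10. For *ADM* the same interquartile range was 1.37, wider than 65.4% of genes. The interquartile range of *ADM2* stayed between 3.33 and 3.55 under the other scalings and pseudocount tried. Only 11 tumors lay within 2-fold of the *ADM2* median.

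The receptor gene *CALCRL* was found in every tumor, with a lowest count of 98, a median of 454.5 and a highest of 2600. It ran from 122 normalized counts in TC812 over a median of 415 to 2187 in TC538, a 17.9-fold range. TC812, TC2289 and TC1936 were low, while TC1218, TC1123 and TC538 were high, with 1601, 1625 and 2187 normalized counts. As a share of all counts TC538 was below TC1218, with 0.00496% (95% Wilson interval 0.00459 to 0.00537) against 0.00712% (0.00685 to 0.00740). The interquartile range of *CALCRL* was 1.50 on the log2 scale, wider than 70.9% of genes.

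*RAMP1*, the accessory protein counted here, had 51 counts in the lowest tumor, a median of 917.5 and 9665 in the highest. Its normalized counts were 46.4 in TC1473, 193 in TC1593 and 295 in TC627 at the low end, 849 at the median, and 4708 in TC22, 6005 in TC1744 and 8445 in TC1869 at the high end. The lowest and the highest tumor differed 182-fold, which rested on TC1473, and within the larger branch 43.7-fold (28.6-fold without TC1593). The interquartile range was 1.74 on the log2 scale, wider than 78.5% of genes. The log2 level of *RAMP1* minus that of *CALCRL* moved over 8.48 units between tumors, from TC1473 at the low end to TC1869 at the high end. This difference was followed only across tumors, since levels of unlike genes were not compared without their lengths.

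**Figure D1:**
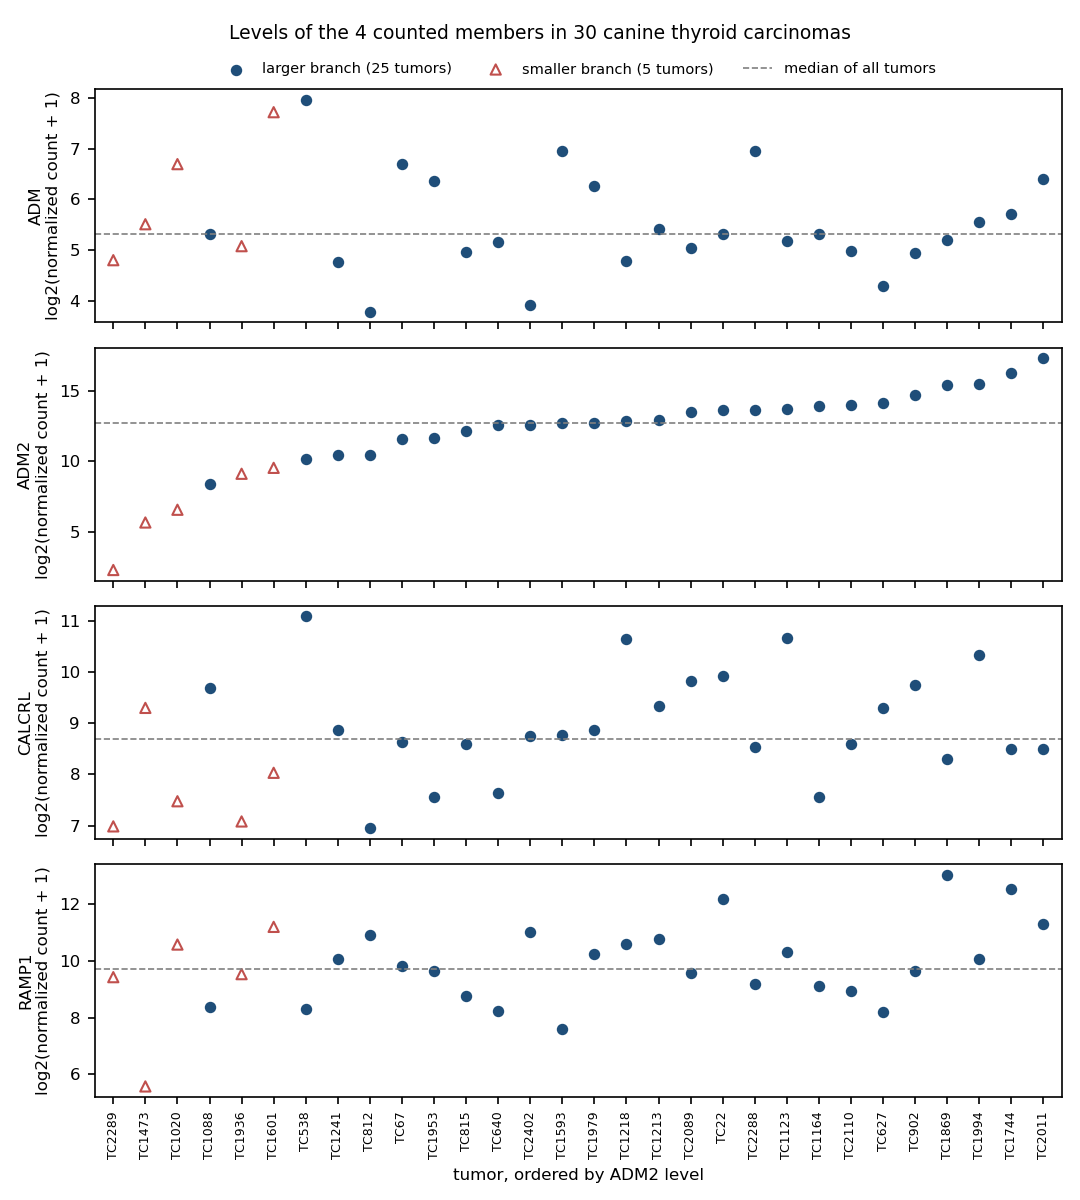
Levels of *ADM*, *ADM2*, *CALCRL* and *RAMP1*, as log2(normalized count + 1), in each of the 30 tumors, which are ordered by *ADM2* from left to right in all panels. Filled circles are the 25 tumors of the larger branch, open triangles the 5 of the smaller one and dashed lines the medians over all tumors. *ADM2* climbs from TC2289 to TC2011 because the tumors are sorted by it, and the order of the other 3 genes over the 30 tumors was not tested.

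The 4 genes were then compared with each other, to ask whether peptides and receptor parts were high in the same tumors. No pair passed. Of 6 pairs, 0 had a Benjamini-Hochberg adjusted permutation p below 0.05 by Spearman's rho, and 0 had an unadjusted one. The pair with the largest coefficient was *ADM2* with *RAMP1* (rho = 0.32, permutation p = 0.117, adjusted p = 0.704; Pearson's r = 0.45, permutation p = 0.0230). Without TC1088 and TC2011, the tumors farthest from the *ADM2* median, r was 0.35 (permutation p = 0.101). *CALCRL* and *RAMP1*, which form one receptor, had rho = -0.07 and r = -0.06 (permutation p = 0.725 and 0.783). *ADM* and *CALCRL* had rho = -0.0023 and r = 0.16 (permutation p = 0.993 and 0.434). *ADM* and *ADM2* had rho = 0.02 and r = -0.01, *ADM* and *RAMP1* had rho = -0.12 and r = -0.23, and *ADM2* and *CALCRL* had rho = -0.03 and r = -0.01. With 25 tumors, a weak relation between members could have been missed. *RAMP2* and *RAMP3*, which make *CALCRL* a receptor for adrenomedullin, were not among these pairs, so they do not cover that receptor.

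Each member was next compared with all other genes, 18710 in each case. A gene is counted when its rho had an adjusted p below 0.05 over all these genes, from the t approximation of Spearman's rho. *ADM2* had 117 genes with a positive rho and 40 with a negative one, which is 0.625% and 0.214% of genes. *CALCRL* had 133 and 94, or 0.711% and 0.502%. *RAMP1* had 1786 and 1957, or 9.55% and 10.5%. Without TC1088, *ADM2* had 69 genes with a positive rho and *CALCRL* 54 with a negative one. Without TC538, *CALCRL* had 85 and 20 and *RAMP1* had 1304 with a negative rho. For *ADM* the count was 0 in both directions, or 0%, by Spearman's rho and also by Pearson's r, while 630 genes (3.37%) had an unadjusted p below 0.05.

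*ADM2* was most like its direct chromosomal neighbours, and some genes of thyroid hormone synthesis also moved with it. The 2 genes most like *ADM2* were *MIOX*, which encodes an enzyme of inositol breakdown, and *SBF1*, which encodes a myotubularin-related protein. Among protein-coding genes in the RefSeq order of the assembly UU_Cfam_GSD_1.0, these are the genes directly before and directly after *ADM2*. *MIOX* had rho = 0.98 and r = 0.97, both with a permutation p = 1e-05, which is the smallest that 100000 permutations can give. Its adjusted p over all genes was 9.41e-14, and r was 0.96 without TC1088 and TC2011. *MIOX* ran from 225 normalized counts over a median of 4683 to 39086 in the larger branch, lowest in TC1088 and highest in TC2011, the same tumors as for *ADM2*. *SBF1* had rho = 0.84 and r = 0.85 (permutation p = 1e-05 for both, adjusted p = 0.00134), with r = 0.81 without the same tumors. *SBF1* spanned a narrower range, from 1154 normalized counts over 8878 to 31882. On the log2 scale the range in the larger branch was 8.93 for *ADM2*, 7.43 for *MIOX* and 4.79 for *SBF1*.

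The next 2 counted genes on either side did not pass. *NCAPH2*, a condensin subunit before *MIOX*, had rho = -0.08 (adjusted p = 0.920), and *ODF3B* before it had 0.31 (adjusted p = 0.561). On the other side, *PPP6R2* had rho = 0.29 (adjusted p = 0.594) and *DENND6B* 0.12 (adjusted p = 0.877). The log2 level of *ADM2* minus that of *MIOX* varied by less than that of *ADM2* minus *SBF1*, from 0.26 to 2.05 in the first case and from -2.65 to 2.88 in the second. The strand setting of the deposited counts is not given in the sources used here, so reads of neighbouring or overlapping genes may not have been kept apart, and their part in these coefficients was not tested.

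**Figure D2:**
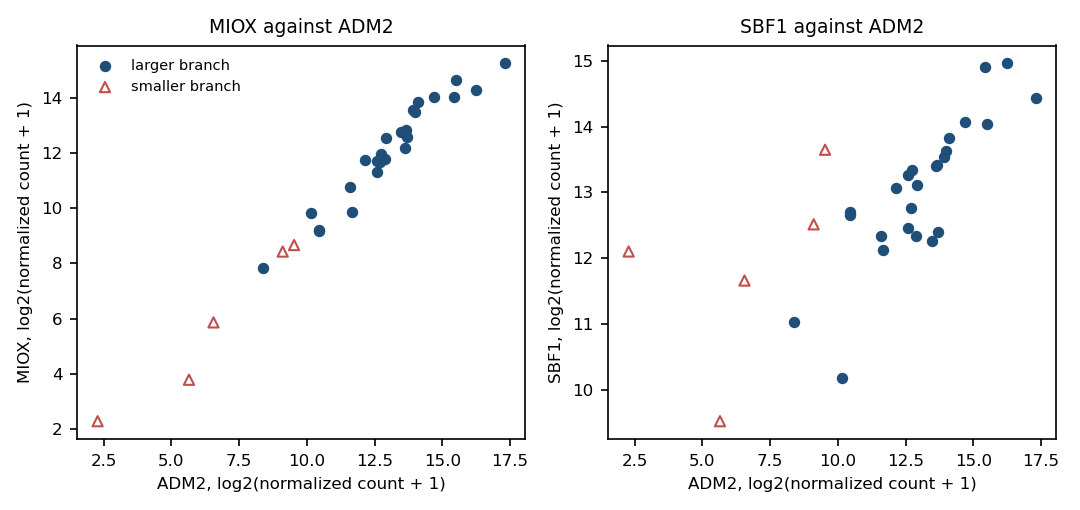
Log2(normalized count + 1) of *MIOX* (left) and *SBF1* (right) against that of *ADM2*, one point per tumor, with the 25 tumors of the larger branch filled and the 5 of the smaller branch as open triangles. *MIOX* lies close to a line (rho = 0.98 in the larger branch), and *SBF1* scatters more (rho = 0.84).

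Of the thyroid follicular genes, 5 of 17 tested had a positive rho with *ADM2* that passed (29.4%, against 0.625% of all genes) and 0 a negative one. The median rho of the list was 0.52, against -0.012 over all genes. A raised median was not particular to this list. The endothelial, mural and fibroblast lists had medians of 0.49, 0.46 and 0.43 with *ADM2*. In each of them 0 genes passed, a count that could not set these lists apart from the 0.625% of all genes. The 5 thyroid follicular genes that passed were the sodium iodide symporter *SLC5A5*, the hydrogen peroxide producing oxidase *DUOX2*, its maturation factors *DUOXA2* and *DUOXA1*, and *TG*. *TG* (rho = 0.66, adjusted p = 0.0467) did not pass without TC1088 (adjusted p = 0.127) or without the count filter (adjusted p = 0.0580), which left 4 of the list in each case. *SLC5A5* had rho = 0.82 and r = 0.79 (permutation p = 1e-05 for both, adjusted p = 0.00224) and r = 0.79 without TC1088 and TC2011. It was at 0 counts in TC812, 6774 normalized counts at the median and 120307 in TC1869. *DUOX2* had rho = 0.78 and r = 0.72 (permutation p = 2e-05 for both, adjusted p = 0.00417), and r fell to 0.59 (permutation p = 0.00290) without these tumors. *DUOX2* had 3 counts in TC1088 and 329033 normalized counts in TC2011, the lowest and highest tumors of *ADM2* in this branch.

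The other 12 genes did not pass. Among them, the thyrotropin receptor *TSHR* had rho = 0.34 (adjusted p = 0.491) and *PAX8* had 0.48 (adjusted p = 0.240). The lowest coefficients were those of the thyroid hormone receptors *THRB*, with rho = -0.24 and r = -0.30 (permutation p = 0.245 and 0.139), and *THRA*, with rho = -0.15 and r = 0.04 (permutation p = 0.471 and 0.849). The neighbours of *ADM2* showed nearly the same counts with this list, 5 of 17 genes for *MIOX* (29.4%, against 0.518% of all genes, median rho = 0.51) and 4 of 17 for *SBF1* (23.5%, against 1.07% of all genes, median rho = 0.53). The share of a tumor's counts on its 10 top genes had rho = 0.55 with *ADM2* (permutation p = 0.00483). It fell just short of the threshold (adjusted p = 0.0529 over 16 relations with depth measures), with r = 0.32 (permutation p = 0.119). The part of this share in the coefficients of *ADM2* was not tested.

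**Figure D3:**
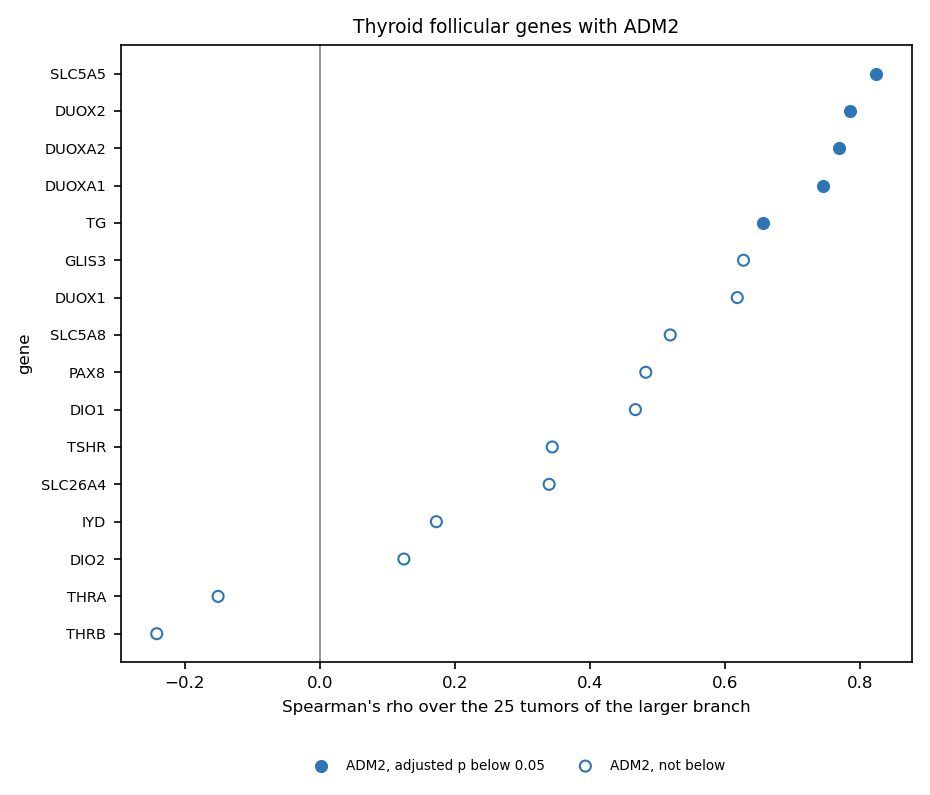
Spearman's rho of *ADM2* with 16 of the 17 thyroid follicular genes tested, over the 25 tumors of the larger branch, ordered by rho, with filled points for an adjusted p below 0.05. The 5 filled points are *SLC5A5*, *DUOX2*, *DUOXA2*, *DUOXA1* and *TG*, and *THRB* and *THRA* lie below 0.

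The genes that ran against *ADM2* most were *RPL9*, a ribosomal protein (rho = -0.80, r = -0.84), and *HNRNPK*, an RNA-binding protein (rho = -0.77, r = -0.70). Their adjusted p was 0.00293 and 0.00642, with permutation p = 1e-05 for *RPL9* and 4e-05 for *HNRNPK* by rho. Leaving out TC1088 and TC2011, r was -0.78 and -0.75. None of the 20 endothelial genes tested passed with *ADM2*, against 0.625% of all genes with a positive rho, so this count could not set the list apart. Their median rho was 0.49, against -0.012 over all genes. *ROBO4*, a guidance receptor of endothelium, had rho = 0.58 (adjusted p = 0.111) and r = 0.70, and *EPAS1* had rho = 0.55 (adjusted p = 0.142) and r = 0.53. *EMCN* and *ERG* were the lowest of the list, with rho = -0.04 and 0.13.

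*CALCRL* followed a small group of vessel genes. The gene most like it was *EMCN*, which encodes endomucin, a sialoglycoprotein on the surface of capillary and venous endothelium. Their coefficients were rho = 0.91 and r = 0.91 (permutation p = 1e-05 for both, adjusted p = 3.32e-06), and r was 0.90 without TC538 and TC1123. *EMCN* ran from 111 normalized counts in TC812, which was also the lowest tumor for *CALCRL*, over a median of 619 to 2601 in TC1218. *EPS8*, an adaptor of actin remodelling, had rho = 0.88 and r = 0.80 (adjusted p = 8.29e-05), and *MEF2C*, a transcription factor of muscle and endothelium, had rho = 0.86 and r = 0.84 (adjusted p = 0.000125). Both had permutation p = 1e-05 by rho, and without TC538 and TC1123 their r was 0.76 and 0.90. Genes running against *CALCRL* were *WDR90*, a microtubule-associated protein (rho = -0.80, r = -0.72, adjusted p = 0.00199), and *AXIN1*, a scaffold of the beta-catenin destruction complex (rho = -0.77, r = -0.70, adjusted p = 0.00455), with r = -0.63 for each without these tumors.

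Of the 20 endothelial genes, 2 passed with *CALCRL* (10%, against 0.711% of all genes), namely *EMCN* and the vascular endothelial growth factor receptor *FLT1* (rho = 0.67, r = 0.69, permutation p = 0.00035 and 0.00023, adjusted p = 0.0344). *FLT1* no longer passed without TC538 (adjusted p = 0.0642). Just short of the threshold were *KDR* (rho = 0.61, adjusted p = 0.0654) and *TEK* (rho = 0.57, adjusted p = 0.0860), and *PECAM1* had rho = 0.52 (adjusted p = 0.116). The median of the list was 0.27, and *CLDN5*, a tight junction protein, and *ESAM* were lowest (rho = -0.25 and 0.03, adjusted p = 0.478 and 0.943). From the other vessel lists, *LYVE1*, a hyaluronan receptor of lymphatic endothelium, had rho = 0.72 and r = 0.69 (permutation p = 0.00013 and 0.00015, adjusted p = 0.0138) and was the one gene of 6 to pass. *RELN* followed with rho = 0.38, and *STAB2* and *PDPN* were lowest (rho = -0.11 and -0.08). *RGS5*, a marker of pericytes, had rho = 0.78 and r = 0.78 (permutation p = 1e-05 and 2e-05, adjusted p = 0.00310) and was the one gene of 10 mural genes to pass. *MYH11* had rho = 0.49 (adjusted p = 0.140), and *DES* and *TAGLN* had rho = -0.09 and -0.01.

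*RAMP1* passed with most of the endothelial list, and neither *EMCN* nor *FLT1* was among the genes that passed. It had a positive rho that passed with 13 of 20 genes (65%, against 9.55% of all genes), with a median rho of 0.60 against 0.017 over all genes. The highest were the transcription factors *SOX18* (rho = 0.70, r = 0.73, adjusted p = 0.00547) and *SOX17* (rho = 0.69, r = 0.72, adjusted p = 0.00651), whose r was 0.71 and 0.72 without TC1869 and TC1744. The others included *TIE1*, *ESAM*, *PLVAP*, *CDH5*, *CLDN5* and *CD34*, with rho from 0.65 to 0.69. *EMCN*, the gene most like *CALCRL*, had rho = 0.05 and r = -0.02 with *RAMP1* (permutation p = 0.831 and 0.925), the lowest of the list, followed by *ERG* with 0.15. Of 5 genes of the mitochondrial ribosome and respiratory chain, kept as a check of depth and RNA quality, 2 also passed with *RAMP1* (40%), *UQCRQ* (rho = 0.69, adjusted p = 0.00649, with at most 121 counts) and *ATP5MC1* (rho = 0.58, adjusted p = 0.0223), and the median of these 5 was 0.06. Their part in the endothelial count was not tested. Between *CALCRL* and *RAMP1* the difference of the coefficients was not tested.

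**Figure D4:**
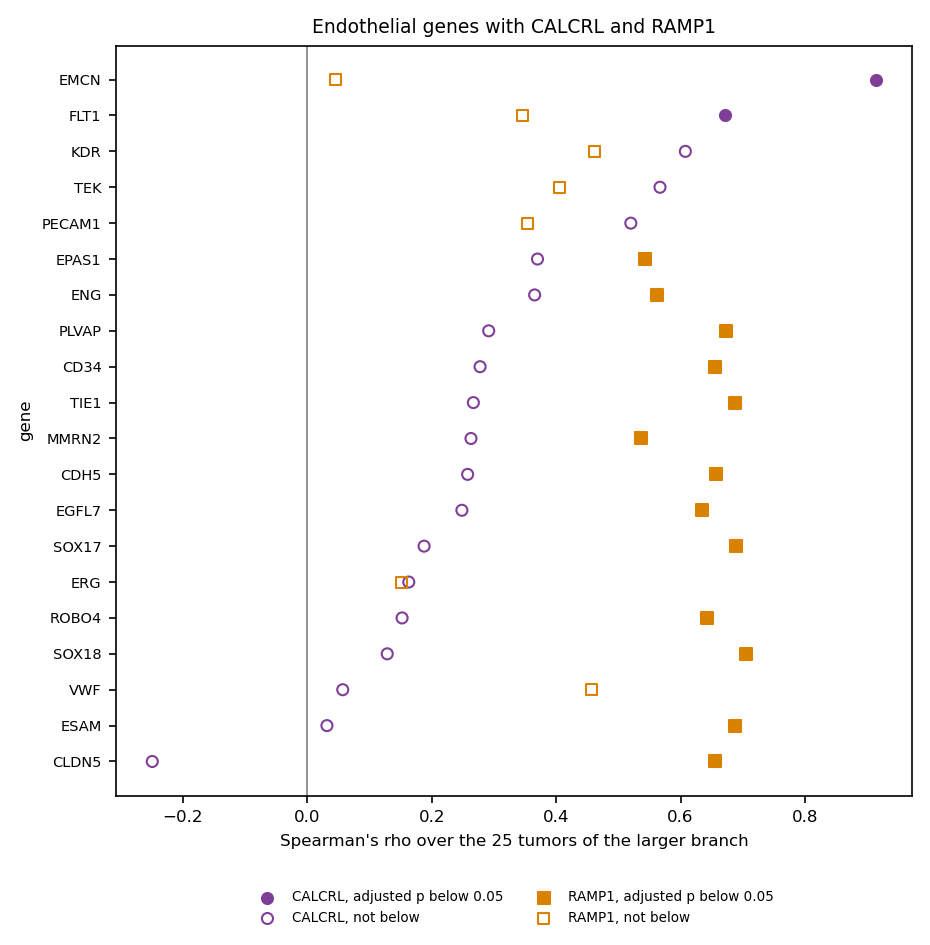
Spearman's rho of 20 endothelial genes with *CALCRL* (circles) and *RAMP1* (squares) over the 25 tumors of the larger branch, ordered by the value for *CALCRL*, with filled symbols for an adjusted p below 0.05. The 2 filled circles (*EMCN*, *FLT1*) and the 13 filled squares are on different genes.

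Of the 10 mural genes, 5 passed with *RAMP1* (50%, against 9.55% of all genes). *NOTCH3*, a receptor of vascular smooth muscle, had rho = 0.69 and r = 0.68 (adjusted p = 0.00651), and *TAGLN*, an actin-binding protein of smooth muscle, had rho = 0.64 and r = 0.63 (adjusted p = 0.00989). *RGS5* and *MYH11* were the lowest (rho = 0.09 and 0.17). The genes most like *RAMP1* came from none of the lists. They were *SDF4*, a calcium-binding protein of the Golgi (rho = 0.85, r = 0.79), *SMPD1*, acid sphingomyelinase (rho = 0.83, r = 0.81), and *CYTH2*, an exchange factor of ARF proteins (rho = 0.81, r = 0.70). Running against it most were *ENOX2* (rho = -0.87, r = -0.83) and *GEMIN2*, a part of the SMN complex (rho = -0.84, r = -0.77). All 5 had a permutation p = 1e-05 by rho, an adjusted p of 0.00174 or less, and an r of at least 0.607 in size without TC1869 and TC1744. Total counts per tumor had rho = 0.53 with *RAMP1* (permutation p = 0.00661), just short of the threshold (adjusted p = 0.0529), and r = 0.60 (permutation p = 0.00146). Without TC1869 and TC1744 this r was 0.47 (permutation p = 0.0231). Its part in the counts of genes was not tested.

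The other genes of the pathway were taken as a list of 33, with 29 tested. They comprised related peptides and receptors, the peptide amidating enzyme, G proteins, adenylyl cyclases, the cyclic AMP effectors, arrestins and receptor kinases, and endothelial nitric oxide synthase. The calcitonin receptor *CALCR* and amylin (*IAPP*) did not pass the count filter, with at most 1532 and 22 counts. With *RAMP1*, 9 of 29 had a positive rho that passed (31%, against 9.55% of all genes) and 0 a negative one, with a median rho of 0.29. The catalytic subunit of protein kinase A, *PRKACA*, had rho = 0.74 and r = 0.75 (permutation p = 0.00011 and 4e-05, adjusted p = 0.00365), with r = 0.65 without TC1869 and TC1744. The stimulatory G protein subunit *GNAS* had rho = 0.66 and r = 0.50 (permutation p = 0.00044 and 0.0111, adjusted p = 0.00823). The adenylyl cyclases *ADCY6* (rho = 0.65) and *ADCY4* (rho = 0.57), the cyclic AMP sensor *RAPGEF3* (rho = 0.61) and the receptor kinase *GRK2* (rho = 0.53) also passed. Without TC538, *ADCY4* and *GRK2* did not pass (adjusted p = 0.0545 and 0.0799), which left 7 of the 29, and *GRK2* was also lost with TMM scaling (adjusted p = 0.0710). *NOS3* (rho = 0.58) passed too, as did *GPR182* (rho = 0.63), a receptor once proposed to bind adrenomedullin, which had at most 33 counts in any tumor. *CALCA*, whose gene also gives calcitonin gene-related peptide, had rho = 0.59 (adjusted p = 0.0190). Its lowest count was 0, in TC1241, and its median over the 30 tumors was 140.5 counts. It was the 1 gene of 10 C cell genes tested that passed with *RAMP1* (10%, against 9.55% of all genes). Of the 29 pathway genes, *GNAQ* and *CRCP*, the receptor component protein, were lowest, with rho = -0.49 and -0.46 (adjusted p = 0.0586 and 0.0826).

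With *ADM2*, 2 of 29 pathway genes passed (6.90%, against 0.625% of all genes). These were *NOS3* (rho = 0.72, r = 0.78, permutation p = 0.00013 and 1e-05, adjusted p = 0.0159) and *GRK5*, a receptor kinase (rho = 0.68, r = 0.63, permutation p = 0.00022 and 0.00062, adjusted p = 0.0349). *NOS3* was lowest in TC1088 and highest in TC2011, at 36.9 and 909 normalized counts. *GRK5* did not pass without TC538 (adjusted p = 0.0535), which left 1 of the 29. *SLC9A3R1*, a scaffold that binds receptor tails, and *CRCP* were lowest (rho = -0.41 and -0.30, adjusted p = 0.349 and 0.582). With *CALCRL*, 0 of 29 passed (against 0.711% of all genes with a positive rho and 0.502% with a negative one), with a median rho of 0.04. With *ADM*, 0 of 29 passed, against 0% of all genes, with a median rho of 0.02. *PAM*, the enzyme that amidates the mature peptides, did not pass with *ADM2* (rho = 0.24, adjusted p = 0.690) or with *CALCRL* (rho = 0.43, adjusted p = 0.191).

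**Figure D5:**
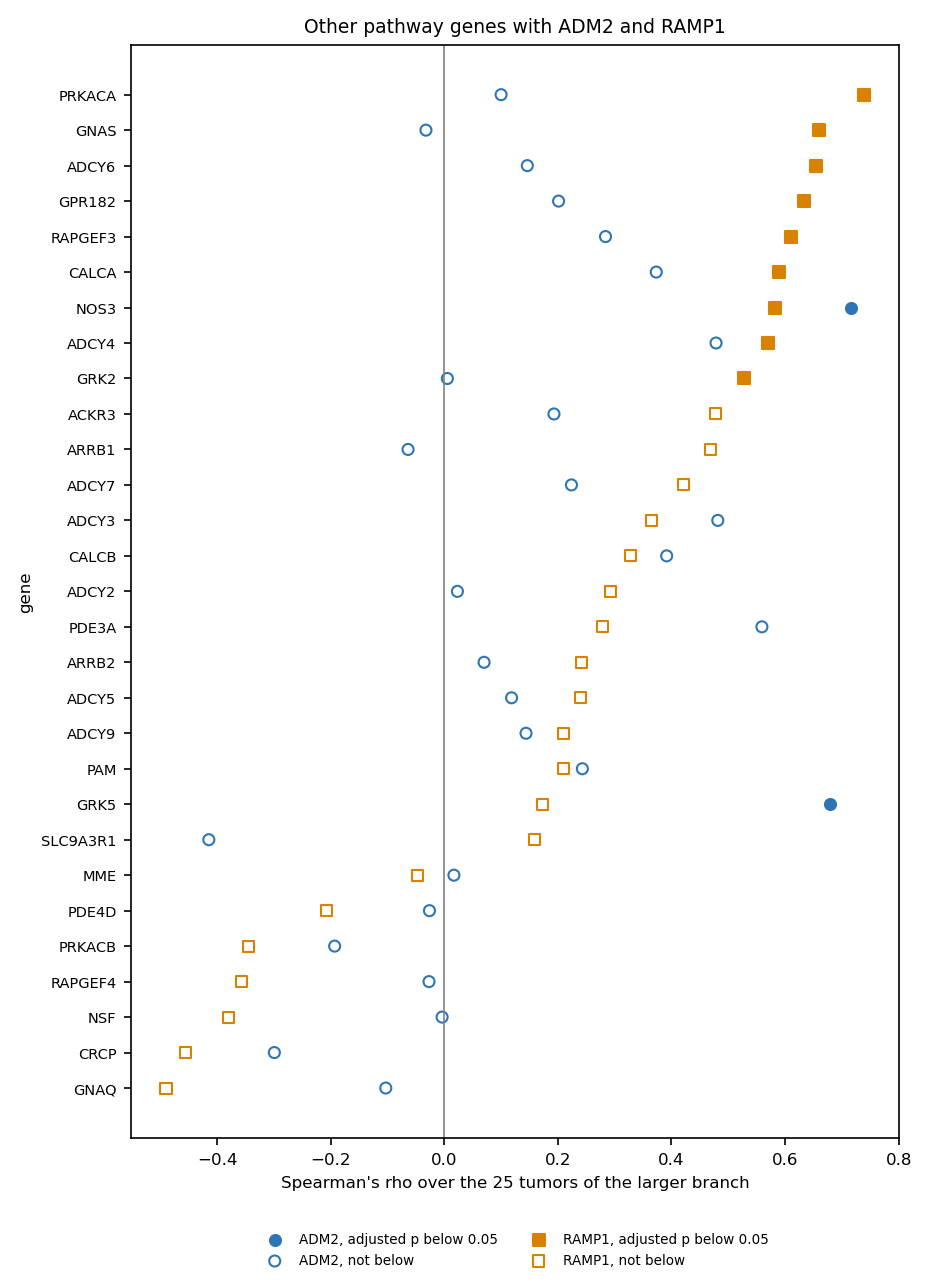
Spearman's rho of 29 other pathway genes with *ADM2* (circles) and *RAMP1* (squares) over the 25 tumors of the larger branch, ordered by the value for *RAMP1*, with filled symbols for an adjusted p below 0.05. *NOS3* is filled for both, *GRK5* for *ADM2* alone and 8 others, led by *PRKACA*, for *RAMP1* alone.

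*ADM* was set against the hypoxia response, of which it is a known target. None of the 24 genes tested passed, against 0% of all genes, so this count could not set the list apart. Their median rho was 0.09, against 0.0031 over all genes. The highest were *MXI1*, a MYC antagonist (rho = 0.53, r = 0.44, permutation p = 0.00705 and 0.0275), and the mTOR inhibitor *DDIT4* (rho = 0.41, r = 0.42, permutation p = 0.0419 and 0.0346), both with an adjusted p of 0.999. The lowest were carbonic anhydrase 9, *CA9* (rho = -0.26), and the collagen hydroxylase *P4HA2* (rho = -0.18). The genes most like *ADM* were *DRAM1* (rho = 0.61), *EMP2* (rho = 0.58) and *SMPD3* (rho = 0.57), and those running against it were *PDE8B* (rho = -0.63) and *RELL1* (rho = -0.61), all with an adjusted p of 0.999. *RAMP1* had 1 hypoxia gene of 24 with a positive rho that passed, *DDIT4* (rho = 0.55), which is 4.17%, against 9.55% of all genes. It had 4 with a negative one (16.7%, against 10.5% of all genes), the lowest being *KDM3A* (rho = -0.67) and *PLOD2* (rho = -0.64). In the 25 tumors a rho of -0.63 with *ADM* did not pass over all genes, while *GRK2* passed with *RAMP1* at rho = 0.53 (adjusted p = 0.0383). The adjustment depends on all genes tested with a member, so single relations of *ADM* could have been missed. *ADM* rested on a median of 41.5 counts, and the part of this in the counts of genes was not tested.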

How the data were processed

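RNA was sequenced from 30 primary canine thyroid tumors. Per the labels and the study's methods, total RNA libraries with ribosomal RNA removed were mapped by the authors to CanFam3.1 with STAR, and the deposited values are raw counts of reads per Ensembl gene and tumor. The strand setting is not given in the sources used here. All 30 tumors stayed in no group, because the labels give no histologic type.

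Counts were divided by median-of-ratios size factors from 15611 genes with counts in every tumor and analysed as log2(normalized count + 1). Ward clustering used 763 genes with mean above 2 and variance above 6 on that scale, members left out. Of 30424 genes (15780 with a symbol), 18711 had at least 10 counts in at least 5 tumors. Over the larger branch, Spearman's rho of each member with all genes was tested with the t approximation and Benjamini-Hochberg adjustment at 0.05, and named relations with two-sided permutation tests (100000 permutations, Spearman's rho and Pearson's r) and r without the 2 tumors farthest from the member's median. Since 4 members had a row, 6 pairs were adjusted together in place of the number planned for 6 members. Total counts, size factor, genes with at least 10 counts and the share of the 10 top genes gave 16 relations with the members, none with an adjusted p below 0.05. Spearman correlations between tumors ran from 0.797 to 0.959, and 0 pairs of tumors were identical. The tumors are taken as independent, as the labels list them as separate samples. The labels give no sequencing batch.

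Besides the members, the text names for each member the 3 genes with the highest and the 2 with the lowest rho (symbol, median of at least 100 normalized counts), for each list described the 2 highest and 2 lowest, and *TG*, *PAX8*, *CALCA*, *PECAM1* and *CDH5*. Another gene of the thyroid follicular list, counted in its totals, is not reported here. Members and the 14 gene lists were chosen with earlier results of these data known. The pairing of lists with members, the neighbouring genes and any list gene named outside these limits were picked with the values already known. Gene order came from the protein-coding genes of RefSeq (UU_Cfam_GSD_1.0), matched by symbol for 15339 genes, with no coordinates used. This is another assembly than the CanFam3.1 of the counts. The correlation step was tested on simulated data with linked genes planted among independent ones. Genes correlated with each other, as in these tumors, were not simulated. The tools were Python 3.11.15, numpy 2.4.6, scipy 1.17.1, pandas 2.3.3, matplotlib 3.10.9, R 4.3.3 and, for TMM factors only, edgeR 4.0.16. Alternatives were TMM scaling, Pearson's r, other count filters, average-linkage clustering, and leaving out TC1088 or TC538. CPM scaling was run for the levels of members only, and another pseudocount for these levels and the pairs of members.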

Additional observations from a re-analysis of the deposited data

How the results depend on the processing

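Counts of genes depended on the coefficient and on 2 tumors. With Pearson's r of log2 levels, *ADM2* had 437 genes with a positive and 181 with a negative coefficient that passed (117 and 40 by Spearman's rho), and *CALCRL* had 357 and 441 (133 and 94). By Pearson's r, 8 thyroid follicular genes passed with *ADM2* and 4 endothelial genes with *CALCRL*. Without TC1088, *ADM2* had 69 positive genes and *CALCRL* 54 negative ones. Without TC538, *CALCRL* had 85 positive and 20 negative genes, *RAMP1* had 1304 negative ones, and 1 pathway gene passed with *ADM2*. The cause was not tested. The count with *ADM* was 0 under each alternative that was run for it. The endothelial genes with *RAMP1* were 10 without TC538 and 12 without TC1088, and 13 otherwise.

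CPM scaling was run only for the levels of the members, and a pseudocount of 8 only for these levels and the pairs of members. Of 101 named relations that were followed, 50 passed. Of these 50, 45 passed under every alternative run for them and 5 were lost under at least 1. Without TC538 these were *GRK5* with *ADM2*, *FLT1* with *CALCRL*, and *ADCY4* and *GRK2* with *RAMP1*. *GRK2* was also lost with TMM scaling and without the count filter, and *TG* with *ADM2* was lost without TC1088 and without the count filter. Thyroid follicular genes with *ADM2* thus ran from 4 to 8, and pathway genes with *RAMP1* from 7 to 10. The sign turned only for relations that did not pass. *ADM* with *ADM2* was -0.011 by Pearson's r and -0.032 with a pseudocount of 8. *ADM* with *CALCRL* was 0.034 with TMM scaling, 0.16 by Pearson's r and 0.16 with a pseudocount of 8. *ADM2* with *CALCRL* was 0.021 with TMM scaling, 0.017 without TC1088 and 0.096 without TC538, and *CALCRL* with *RAMP1* was 0.011 without TC538. With *ADM2*, *EMCN* was 0.047 without TC1088 and 0.060 without TC538, and *NCAPH2* and *THRA* were 0.14 and 0.040 by Pearson's r. With *CALCRL*, *ESAM* was -0.062 by Pearson's r, and *TAGLN* was 0.045 with TMM scaling, 0.040 without TC1088 and 0.12 without TC538. *EMCN* with *RAMP1* was -0.020 by Pearson's r. Average linkage gave the same branches, so it could not change any relation. No paired analysis was possible because the labels give no groups and no replicate numbers shared between groups.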

Other observations

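Shared calls between members are given beside the share that passed of all genes. *ADM2* and *CALCRL*, with 0.625% and 0.711% of all genes passing with a positive rho, shared 0 genes. *ADM2* and *RAMP1* shared 4 genes with a positive rho, which is 3.42% of the 117 genes of *ADM2* (against 9.55% of all genes that passed with *RAMP1*) and 0.224% of the 1786 of *RAMP1* (against 0.625% for *ADM2*). *CALCRL* and *RAMP1* shared 0 genes with a positive rho for both, while 5 genes had a negative rho with *CALCRL* and a positive one with *RAMP1*, which is 5.32% of the first list and 0.280% of the second (against 9.55% and 0.502% of all genes). Over the 172 genes tested from the 14 lists, 34 with a positive and 7 with a negative rho passed with *RAMP1*, or 19.8% and 4.07%, against 9.55% and 10.5% of all genes. With *CALCRL* 4 genes passed (2.33%, against 0.711%) and with *ADM2* 7 (4.07%, against 0.625%), all with a positive rho. With *ADM* 0 passed, against 0% of all genes. The medians of the lists ran from -0.17 to 0.39 with *ADM*, the highest being the fibroblast list.

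Next to *CALCRL* in the RefSeq order lies *TFPI*, an inhibitor of coagulation made by endothelium. It had rho = 0.62 and r = 0.62 (permutation p = 0.00145 and 0.00089) and did not pass (adjusted p = 0.0604). Its adjusted p was 0.0253 without TC1088 but 0.161 without TC538. *FAM171B*, the nearest counted gene on the other side of *CALCRL*, had rho = -0.02 (adjusted p = 0.968). Next to *RAMP1* lie *UBE2F* (rho = 0.60, adjusted p = 0.0157) and *SCLY* (rho = 0.60, adjusted p = 0.0161), where 9.55% of all genes passed with a positive rho. *KLHL30*, the next counted gene on that side, did not pass (rho = 0.48, adjusted p = 0.0658). On the other side *RBM44* (rho = -0.17), *LRRFIP1* (rho = 0.40, adjusted p = 0.137) and *RAB17* (rho = -0.08) did not pass either.

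The 5 tumors of the smaller branch were too few for coefficients. *ADM2* had 3 counts in TC2289, 54 in TC1473, 96 in TC1020, 520 in TC1936 and 858 in TC1601, and they ranked 1, 2, 3, 5 and 6 of the 30 tumors from the lowest. *MIOX* had 3, 14, 59, 325 and 472 counts in the same tumors, in the same order. *SBF1* did not keep this order, with 3425, 805, 3339, 5524 and 14950 counts. *CALCRL* had 98, 694, 183, 127 and 304 counts, and *EMCN* had 91, 795, 135, 179 and 272, both highest in TC1473 and lowest in TC2289. *RAMP1* had 536, 51, 1578, 699 and 2742 counts, so that TC1473 was the lowest of all 30 tumors for *RAMP1* and ranked 20 for *CALCRL*. *ADM* had 21, 49, 106, 31 and 244 counts. *CALCA* had 95 counts in TC2289 and between 132876 and 586358 in the other 4.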
